A study of Mus musculus with 12 samples.

Results

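The 34 genes described here mark the neural crest, Schwann cells and other glia, neural progenitors and neurons. They were read in mouse embryonic fibroblasts (MEFs), primary cultures of embryonic connective tissue cells, as the probe sets annotated with exactly 1 of the 34 symbols. Each of the 34 had 1 such probe set among 28853 on the array, of which 21789 carried a single symbol. The 12 cultures came from male C57BL/6J embryos staged E12.5-14.5 and were harvested untreated at passage 5, with 1 Affymetrix Mouse Gene ST array per culture. There were 3 cultures each of mTERT KO, in which Tert, the gene of the protein subunit of telomerase, is deleted, and of mTERT WT, and 3 each of mTR KO, in which Terc, the gene of the telomerase RNA, is deleted, and of mTR WT. Both knockouts were of the first generation (G1), and each knockout culture had wild-type littermates in its set. The embryonic day of each culture and the parts of the embryo that were plated are not given in the sources used here. The study asked how the loss of either telomerase subunit alters gene expression, and the values below show what the neural and crest genes did in the same arrays.

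Neural crest cells leave the dorsal border of the neural tube, migrate through the embryo and form Schwann cells, peripheral neurons, pigment cells and parts of the facial skeleton. Schwann cells and their precursors keep the transcription factor Sox10, receive neuregulin from axons through the receptor Erbb3 and carry the neurotrophin receptor Ngfr. Cultures grown from whole embryo tissue can hold a few such cells among the fibroblasts. In bulk RNA, fewer cells of a type and less RNA per cell cannot be told apart.

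Values are deposited log2 signals, so a difference of 1 is a doubling, and levels of different probe sets are not compared. A probe set was counted as above background where its signal exceeded that of 95% of the 1023 probe sets for olfactory receptors on the same array, a level between 4.93 and 5.09. The number of arrays limits the precision. Tert lay at 5.51 to 5.74 in mTERT WT, at 4.75 to 4.99 in mTERT KO and at 5.66 to 5.80 in the mTR cultures, as their labels state. The Terc probe set was below background in all 12 cultures (4.50 to 4.94) and so checks no label. All 11 fibroblast markers were above background in all 12 cultures, and so were all 10 macrophage markers, whose mean ranged from 6.82 in mTR WT culture 1 to 9.75 in mTR KO culture 1. Endothelial markers were below background in every culture for 5 of 6 genes, and melanocyte genes for 8 of 9.

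Of the 34 genes, 10 were above background in all 12 cultures, against 53.3% of all probe sets, 22 in at least 3 cultures, against 63.0%, and 11 in none, against 33.3%. Among the 11 crest and Schwann genes 3 were above background throughout, 7 in some cultures and 1, Gfra3 (a receptor for artemin), in none. Of 9 genes of the neuronal cytoskeleton and RNA binding, Stmn2, Tubb3, Map2 and Gap43 were above background throughout and the other 5 in no culture. These 5 were the neurofilament genes Nefl and Nefm, the microtubule-binding gene Dcx and the RNA-binding genes Elavl3 and Elavl4. Both synaptic genes, Snap25 and Syt1, were below background in all cultures, and so were Olig2 (oligodendrocyte lineage), Th (catecholamine synthesis) and Isl1 (sensory and motor neuron identity). The 11 genes never above background lay between 4.08 and 4.96. Ret, the signalling receptor for GDNF family ligands, passed its background in mTR WT culture 1 only, at 5.03.

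**Figure D1:**
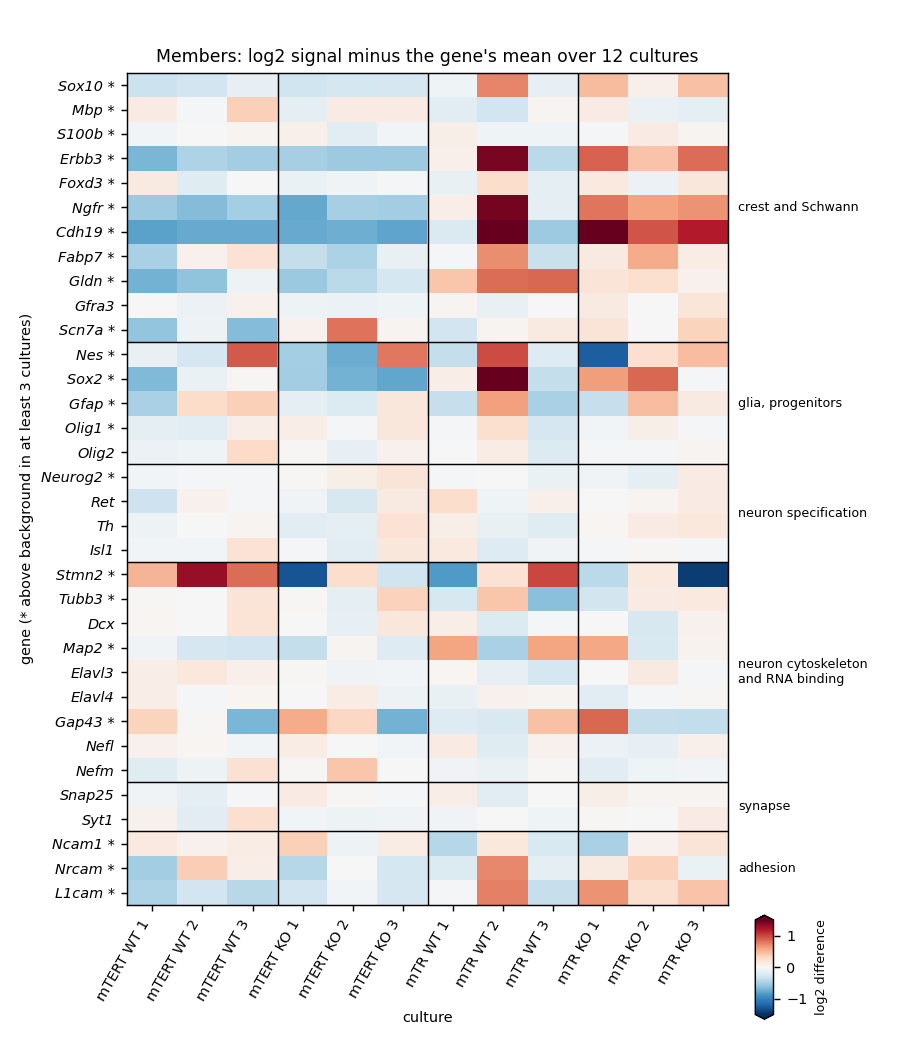
Log2 signal of the 34 genes (rows, by role) in the 12 cultures (columns), minus each gene's mean over the 12 cultures; colours saturate at a difference of 1.5 and stars mark the 22 genes above background in at least 3 cultures. Cdh19, Erbb3 and Ngfr are high in mTR WT culture 2 and the 3 mTR KO cultures and low in all 6 mTERT cultures, while the starless rows are nearly flat.

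Of the 11 crest and Schwann genes, Cdh19, Erbb3, Ngfr and Sox10 varied together among the cultures, as did the adhesion gene L1cam and, less closely, the progenitor gene Sox2. The next lines give the sequence upstream of the start site for Ngfr, L1cam and Sox2 and for Gldn, which followed another pattern. The windows are the 250 bases before the start in RefSeq's GRCm38.p6 annotation, written 5′ to 3′ on the gene's strand. Capitals mark E-boxes (CANNTG, the same on both strands) and the SOX core ACAAAG, searched on both strands. The windows lie at chr11:95587699-95587948 (minus strand) for Ngfr, chrX:73880791-73881040 (minus strand) for L1cam, chr3:34649745-34649994 (plus strand) for Sox2 and chr9:54286236-54286485 (plus strand) for Gldn.
Ngfr: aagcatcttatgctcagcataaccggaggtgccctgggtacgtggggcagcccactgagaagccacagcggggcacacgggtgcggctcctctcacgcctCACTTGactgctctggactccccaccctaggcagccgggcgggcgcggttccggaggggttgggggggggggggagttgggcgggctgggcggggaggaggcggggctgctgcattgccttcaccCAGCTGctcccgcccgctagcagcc
L1cam: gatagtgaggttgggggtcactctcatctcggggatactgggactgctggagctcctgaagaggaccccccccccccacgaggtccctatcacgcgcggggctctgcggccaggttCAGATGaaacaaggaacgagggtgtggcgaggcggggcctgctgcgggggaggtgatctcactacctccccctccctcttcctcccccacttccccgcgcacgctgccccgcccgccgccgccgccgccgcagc
Sox2: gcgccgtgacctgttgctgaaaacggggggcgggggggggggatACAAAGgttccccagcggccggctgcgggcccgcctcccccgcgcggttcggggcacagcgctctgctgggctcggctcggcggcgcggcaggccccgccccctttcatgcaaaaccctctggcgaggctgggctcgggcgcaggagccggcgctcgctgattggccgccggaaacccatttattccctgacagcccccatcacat
Gldn: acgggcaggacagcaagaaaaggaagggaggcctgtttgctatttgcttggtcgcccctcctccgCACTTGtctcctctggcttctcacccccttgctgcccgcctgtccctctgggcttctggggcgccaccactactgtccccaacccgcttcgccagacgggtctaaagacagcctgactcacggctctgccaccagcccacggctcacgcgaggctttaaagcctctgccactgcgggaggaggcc
A window was found for 21 of the 34 genes. An E-box was present in the first window of 11 of the 21, against 66.2% of all 32851 windows. ACAAAG was present in 1 of the 21, Sox2, against 16.5% of all windows, and ACAATG in 3 (Elavl4, Olig2 and Tubb3), against 10.7%. Those matches describe the letters only, and the arrays hold no measurement of binding or methylation there.

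Several crest and Schwann genes were near or below background in the mTERT cultures and above it in most mTR cultures. Cdh19, a cadherin of Schwann cell precursors, was at 4.29, 4.34 and 4.33 in mTERT WT cultures 1 to 3 and at 4.34, 4.35 and 4.30 in mTERT KO, all below background. It was at 4.87, 6.77 and 4.55 in mTR WT and at 6.64, 6.04 and 6.28 in mTR KO. Only mTR WT culture 2 and the 3 mTR KO cultures were above background, and all 6 mTR values lay above all 6 mTERT values. With the mTERT cultures taken at their background level, Cdh19 was at least 1.79-fold higher in the mTR cultures.

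Erbb3 repeated that order. It was at 4.51, 4.73 and 4.67 in mTERT WT and at 4.70, 4.65 and 4.65 in mTERT KO. In mTR WT it was at 5.27, 6.62 and 4.79, and in mTR KO at 6.08, 5.62 and 6.04. It was below background in all 6 mTERT cultures and in mTR WT culture 3, and it was at least 1.64-fold higher in the mTR cultures.

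Ngfr was just above background in every mTERT culture, at 5.27, 5.17 and 5.30 in WT and at 5.04, 5.31 and 5.29 in KO. In the mTR cultures it was at 5.91, 7.25 and 5.67 in WT and at 6.62, 6.41 and 6.48 in KO. The lowest mTR culture thus lay above the highest mTERT culture, and the mTR KO cultures (6.50 ± 0.10, SD, n = 3) were closer together than the mTR WT cultures (6.28 ± 0.85, SD, n = 3).

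Sox10 was at 5.08, 5.11 and 5.27 in mTERT WT, at 5.10, 5.13 and 5.15 in mTERT KO, at 5.33, 6.13 and 5.28 in mTR WT and at 5.86, 5.47 and 5.84 in mTR KO. Its groups were separated by a margin far smaller than the SD of any mTR group, since mTR WT culture 3 nearly met mTERT WT culture 3. L1cam, an adhesion molecule of axons and Schwann cells, was at 4.94, 5.12 and 4.99 in mTERT WT and at 5.11, 5.37 and 5.16 in mTERT KO. It was at 5.38, 6.16 and 5.06 in mTR WT and at 6.08, 5.65 and 5.84 in mTR KO, so that mTR WT culture 3 fell within the mTERT range.

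The mean of Cdh19, Erbb3, Ngfr, Sox10 and L1cam, a group picked after its values were seen, lay between 4.82 and 4.96 in the 6 mTERT cultures. In mTR WT it was 5.35, 6.58 and 5.07, and in mTR KO 6.26, 5.84 and 6.09. The wild-type group thus held both the highest and the lowest mTR culture.

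**Figure D2:**
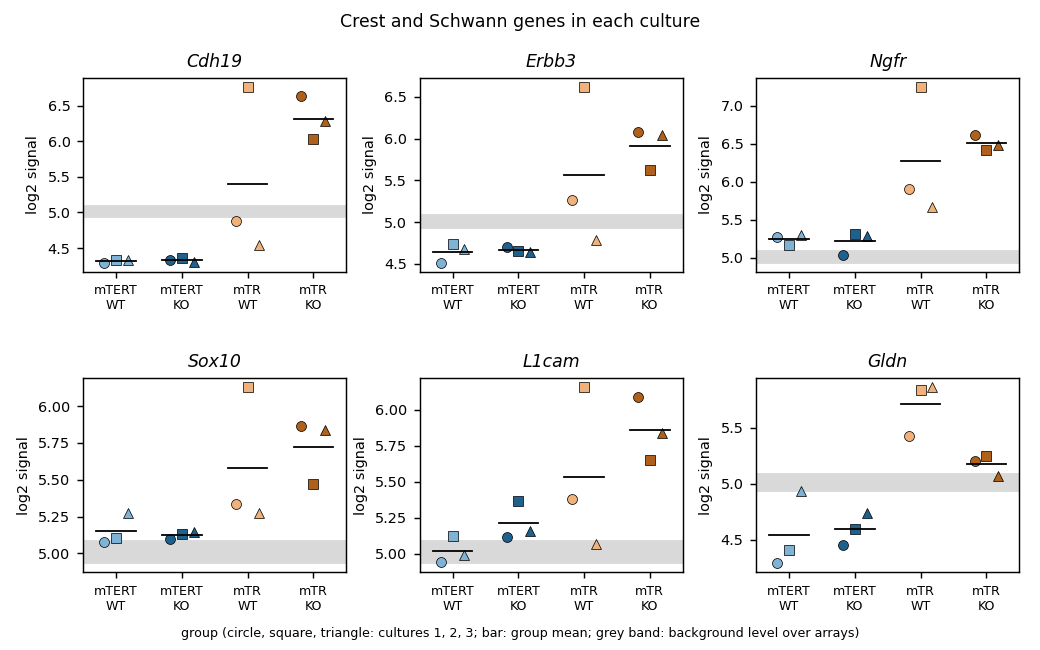
Log2 signal of 6 genes in each culture, by group, with the group mean as a bar and the range of the background level over arrays as a grey band. The mTERT cultures lie in or near the band for Ngfr, Sox10 and L1cam and below it for Cdh19, Erbb3 and Gldn. Among all cultures mTR WT culture 2 (square) is the highest for the first 5 genes, and Gldn is instead highest in mTR WT as a group.

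Sox2, a transcription factor of neural progenitors and early glia, shared part of this pattern. It was at 5.27, 5.84 and 5.96 in mTERT WT, at 5.42, 5.24 and 5.17 in mTERT KO, at 6.04, 7.49 and 5.58 in mTR WT and at 6.57, 6.80 and 5.92 in mTR KO. Its mTERT and mTR ranges overlapped. The Sox2 gene lies within the longer transcript unit Sox2ot, and signal from that RNA was not told apart here. Fabp7, a lipid-binding protein of radial glia and Schwann cell precursors, was at 4.47, 5.02 and 5.18 in mTERT WT, at 4.61, 4.49 and 4.85 in mTERT KO, at 4.95, 5.66 and 4.63 in mTR WT and at 5.10, 5.52 and 5.07 in mTR KO. It was above background in mTERT WT cultures 2 and 3, in mTR WT culture 2 and in all mTR KO cultures. Foxd3, a factor of early crest cells, stayed within 4.81 to 5.26 and was above background in 4 cultures, mTERT WT 1, mTR WT 2, mTR KO 1 and mTR KO 3.

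Gldn, the gene of gliomedin, which Schwann cells secrete at nodes of Ranvier, separated the mTERT and mTR cultures but in another order. It was below background in all 6 mTERT cultures, at 4.29, 4.41 and 4.93 in WT and at 4.45, 4.60 and 4.74 in KO. It was above background in all 6 mTR cultures, at 5.43, 5.84 and 5.86 in WT and at 5.20, 5.25 and 5.07 in KO. The mTR cultures were at least 1.34-fold higher, and here the 3 mTR WT cultures lay above the 3 mTR KO cultures.

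Other Schwann and myelin genes did not share the separation. Mbp, myelin basic protein, was between 5.05 and 5.56 in the mTERT cultures and between 4.92 and 5.33 in the mTR cultures. S100b, a calcium-binding protein of glia, stayed between 5.08 and 5.36 in all 12. Egr2, the master regulator of myelination, and Gas7 were the most variable of a list of 14 further Schwann and myelin genes. Egr2 ranged from 6.69 to 7.88 in the mTERT and from 6.55 to 8.25 in the mTR cultures, and Gas7 from 5.64 to 6.22 and from 5.48 to 6.85. Of the 14 genes 8 were above background in all 12 cultures and 5 (Mag, Gjc3, Ncmap, Dhh and Lgi4) in none. On average 7 of the 14 were higher and 7 lower in mTR than in mTERT cultures (median -0.003, against -0.006 over all probe sets).

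The direct comparison of the 6 mTR with the 6 mTERT cultures was added after the values were seen. No gene of the 34 passed 5% in limma's test with Benjamini-Hochberg adjustment over all probe sets, against 0.0173% of all probe sets. At an unadjusted p under 0.05 there were 7 (20.6%), all higher in mTR, against 3.54% of all probe sets higher and 6.3% in either direction. The 34 genes were chosen with earlier results of these data known. Such shares, here and for the wild types below, are therefore descriptions only. Ngfr differed by 1.16 ± 0.22 (log2, SE, adjusted p = 0.176). The fitted differences of Gldn (0.87 ± 0.12, adjusted p = 0.0545), Cdh19 (1.53 ± 0.30, adjusted p = 0.195) and Erbb3 (1.08 ± 0.24, adjusted p = 0.301) rest on mTERT signals below background in all 6 cultures. Taken against the background level, they were at least 0.42, 0.84 and 0.71, in that order. The other 3 were Sox10 (0.51 ± 0.14), L1cam (0.58 ± 0.16) and Sox2 (0.92 ± 0.29), with adjusted p from 0.439 to 0.571.

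The 6 mTR values lay above the 6 mTERT values for Sox10, Erbb3, Ngfr, Cdh19 and Gldn, 5 of 34 genes (14.7%), against 0.27% of all probe sets higher and 0.457% in either direction. These 5 were picked out by this separation, so it is given as a description with no test. For Cdh19 in mTR WT cultures 1 and 3, and for Erbb3 in mTR WT culture 3, the signal was below background. So were all mTERT signals of both genes, and signals below background cannot be ordered. Sox10 separated only narrowly, at 5.277 in its lowest mTR culture against 5.273 in its highest mTERT culture. The mTERT and mTR cultures came from separate litters, so line, litter and anything handled per litter cannot be told apart. Among the marker lists, the fibroblast mean was 10.19 to 11.29 in the mTERT and 10.56 to 11.33 in the mTR cultures. The macrophage mean was 7.67 to 9.47 against 6.82 to 9.75, with all 10 markers lower on average in mTR (median -0.42) and none past the test, and its part in the result was not tested. Without mTR WT culture 2, Ngfr (0.92, adjusted p = 0.00189), Cdh19 (1.19, adjusted p = 0.00243) and Erbb3 (0.82, adjusted p = 0.0351) passed, and against background the differences of Cdh19 and Erbb3 were then at least 0.49 and 0.45. Gldn passed without mTERT WT culture 3 (0.97, adjusted p = 0.0235) and without mTR WT culture 1 (0.94, adjusted p = 0.0463).

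The wild types alone, mTERT WT against mTR WT, share cultures with that comparison and so do not test it again. None of the 34 genes passed (limma, 0.0173% of all probe sets did), and 8 (23.5%) had an unadjusted p under 0.05, against 6.78%. Lower in mTERT WT were Gldn (-1.17 ± 0.16, SE, adjusted p = 0.0779), Cdh19 (-1.08 ± 0.43), Ngfr (-1.03 ± 0.31), Erbb3 (-0.92 ± 0.35), L1cam (-0.51) and Sox10 (-0.43), while Mbp (0.29) and Elavl3 (0.22) were higher. Elavl3 was below background in both groups, so its difference is not a measured one. Gldn, Cdh19 and Erbb3 were below background in all 3 mTERT WT cultures, and against the background level they were at least 1.59, 1.28 and 1.43-fold higher in mTR WT, in that order. Groups did not overlap for 6 genes (17.6%), against 13.1% of all probe sets. The 6 include Elavl3, and also Cdh19 and Erbb3, for which some mTR WT cultures were below background too. Without mTR WT culture 2 the differences were -0.54 for Ngfr, -0.20 for L1cam and -0.15 for Sox10. Cdh19 was then below background in both groups, and Erbb3 in 1 of the 2 mTR WT cultures left, with fitted differences of -0.39 each that have no fold. Gldn passed without mTERT WT culture 3, at a difference of -1.36.

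Between mTR KO and mTR WT none of the 34 genes passed, and neither did any probe set (0%). At an unadjusted p under 0.05 there was 1 gene, Gldn (2.94%), against 5.82% of all probe sets. Gldn was 0.54 ± 0.16 (log2, SE) lower in mTR KO, with an adjusted p of 0.839. Cdh19 was 0.92 ± 0.43 higher (adjusted p = 0.839), Erbb3 0.35 ± 0.35, L1cam 0.33 ± 0.22, Ngfr 0.23 ± 0.31 and Sox10 0.14 ± 0.19 higher. Knockout and wild-type values did not overlap for 2 genes (5.88%), Gldn and the dim Syt1, against 11.4% of all probe sets, and 3 against 3 cultures cannot give an exact permutation p below 0.1. The median over the 34 genes was 0.07, against 0.0009 over all probe sets, with 25 above 0. Genes below background in every culture are among the 25, and the share above 0 over all probe sets was not counted.

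The mTR comparison turned on mTR WT culture 2, which had the highest value of all 12 cultures for 13 of the 22 genes above background in at least 3 cultures, against 10.9% of all 18185 such probe sets. Without it Cdh19 passed (limma, adjusted p = 0.0201) at a fitted difference of 1.61. Both mTR WT cultures left were below background for Cdh19, and against that level mTR KO was at least 2.53-fold higher. Also without mTR WT culture 2, Ngfr was 0.71, Erbb3 0.88, L1cam 0.64 and Sox10 0.42 higher in mTR KO, with adjusted p from 0.187 to 0.845. With mTR WT culture 3 left out instead, the difference of Cdh19 was 0.50 (adjusted p = 0.951). All 10 macrophage markers were also higher on average in mTR KO than in mTR WT (median 0.78), none past the test, and their part in these differences was not tested.

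**Figure D3:**
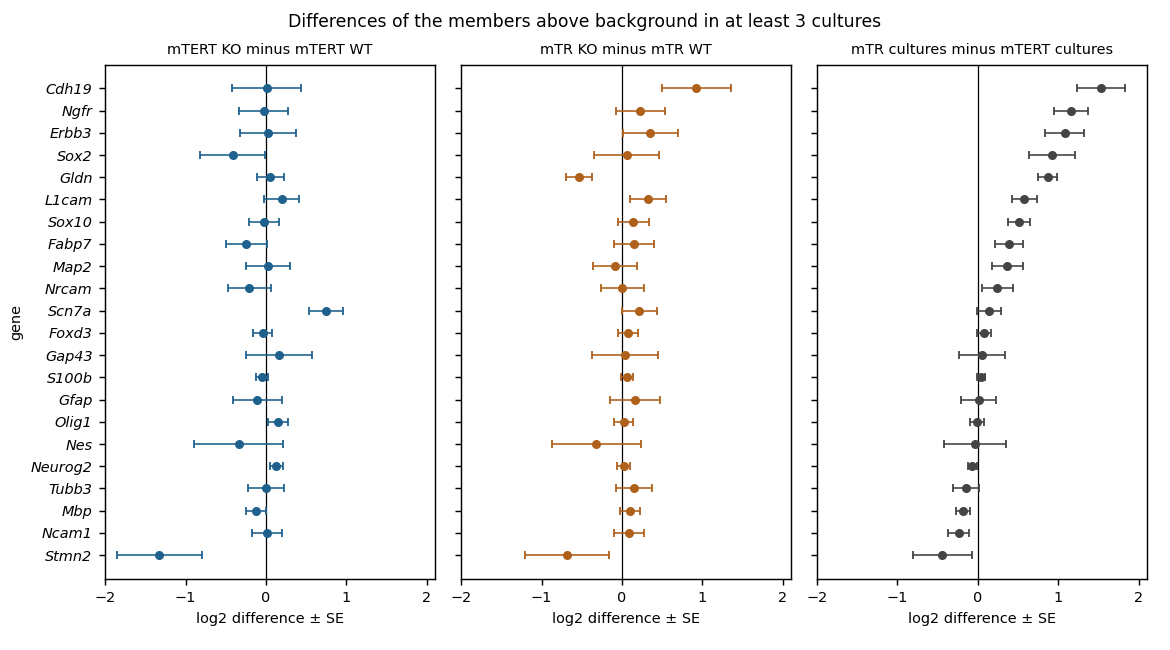
Fitted log2 differences (points) with their SE (bars) for the 22 genes above background in at least 3 cultures, in 3 comparisons on the same scale. The mTERT knockout column is centred near 0 apart from Stmn2 and Scn7a, and the 7 genes at the top of the line comparison lie more than 0.5 above 0.

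In the mTERT comparison none of the 34 genes passed the test, as against 1 probe set in all (0.00347%), and none with the culture number as a block. At an unadjusted p under 0.05 there were 2 (5.88%), Scn7a higher and Stmn2 lower, against 1.92% of all probe sets. Scn7a encodes the sodium-sensing channel Nax of glia and Schwann cells. It was at 4.97, 5.49 and 4.91 in mTERT WT and at 5.63, 6.38 and 5.60 in mTERT KO, a difference of 0.75 ± 0.22 (SE, 1.68-fold, unadjusted p = 0.0054, adjusted p = 1). All 3 knockout values lay above all 3 wild-type values, and the same-numbered knockout was higher by 0.66, 0.88 and 0.69. With the number as a block the SE was 0.10 (limma, unadjusted p = 0.00012, adjusted p = 0.9999). Without mTERT KO culture 2 the difference was 0.49. In the mTR cultures it was at 5.28, 5.60 and 5.70 in WT and at 5.76, 5.57 and 5.90 in KO, where the groups overlapped.

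Stmn2, a tubulin-binding protein of growth cones, was at 7.05, 7.85 and 7.37 in mTERT WT and at 5.25, 6.80 and 6.24 in mTERT KO. The 3 knockout values lay below the 3 wild-type values, by 1.33 ± 0.52 on the log2 scale (SE, 2.51-fold, unadjusted p = 0.0279, adjusted p = 1). The same-numbered differences were -1.80, -1.04 and -1.13. With the number as a block its SE was 0.47 (limma, unadjusted p = 0.0245, adjusted p = 0.9999). In mTR WT it was at 5.69, 6.76 and 7.55 and in mTR KO at 6.14, 6.69 and 5.12, with overlapping groups and a difference of -0.68 ± 0.52. Its SD over the 12 cultures, 0.88, was larger than that of 99.3% of the 18185 probe sets above background in at least 3 cultures.

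Groups in the mTERT comparison did not overlap for 4 genes (11.8%), against 5.97% of all probe sets. Beside Scn7a and Stmn2 these were Neurog2, a proneural factor, at 4.94, 4.95 and 4.95 in WT and 4.99, 5.06 and 5.17 in KO, and Elavl3, which was below background throughout. All 3 same-numbered differences had 1 sign for 8 of the 34 genes (23.5%), against 25.1% of all probe sets. The median over the 34 genes was -0.03, against 0.001 over all probe sets. Cdh19 and Erbb3 were below background in both mTERT groups, so no difference between these groups was measurable. Ngfr and Sox10, just above background, differed by -0.03 ± 0.31 (SE) and -0.03 ± 0.19. In the test of the difference between both knockout effects, none of the 34 genes passed 5% (limma, 0% of all probe sets). At an unadjusted p under 0.05 there were 2, Gldn (0.59) and Elavl3 (-0.28), both with an adjusted p of 0.9999, against 3.34% of all probe sets.

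Nes, Gap43 and Tubb3 varied mostly by culture number in the mTERT cultures. Nes, the intermediate filament nestin of neural progenitors, was at 8.32, 8.18 and 9.35 in mTERT WT and at 7.92, 7.69 and 9.22 in mTERT KO. Number 3 was high in both genotypes, and 91.1% of the variance over these 6 cultures lay between numbers. In the mTR cultures Nes was at 8.08, 9.41 and 8.23 in WT and at 7.19, 8.68 and 8.90 in KO. Gap43, a growth cone protein, was at 6.75, 6.43 and 5.73 in mTERT WT and at 6.97, 6.72 and 5.70 in mTERT KO, with 95.6% of the variance between numbers. It was at 6.22, 6.19 and 6.85 in mTR WT and at 7.28, 6.06 and 6.04 in mTR KO.

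For Tubb3, the neuronal beta-tubulin, 85.3% of the variance in the mTERT cultures lay between numbers. Map2 had 15.9% and Sox2 9.75% there, and Sox2 had 46.1% between genotypes. Stmn2 and Scn7a had most of theirs between genotypes, 62.9% and 58.5%. Over the 22 genes the median share was 47.0% between numbers and 6.27% between genotypes, against 65.3% and 6.25% over all 18185 probe sets above background in at least 3 cultures. In the mTR cultures, where the numbers were not taken as pairs, Gldn had 75.8% between genotypes, and the median over the 22 genes was 5.08%, against 15.7% over all those probe sets.

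**Figure D4:**
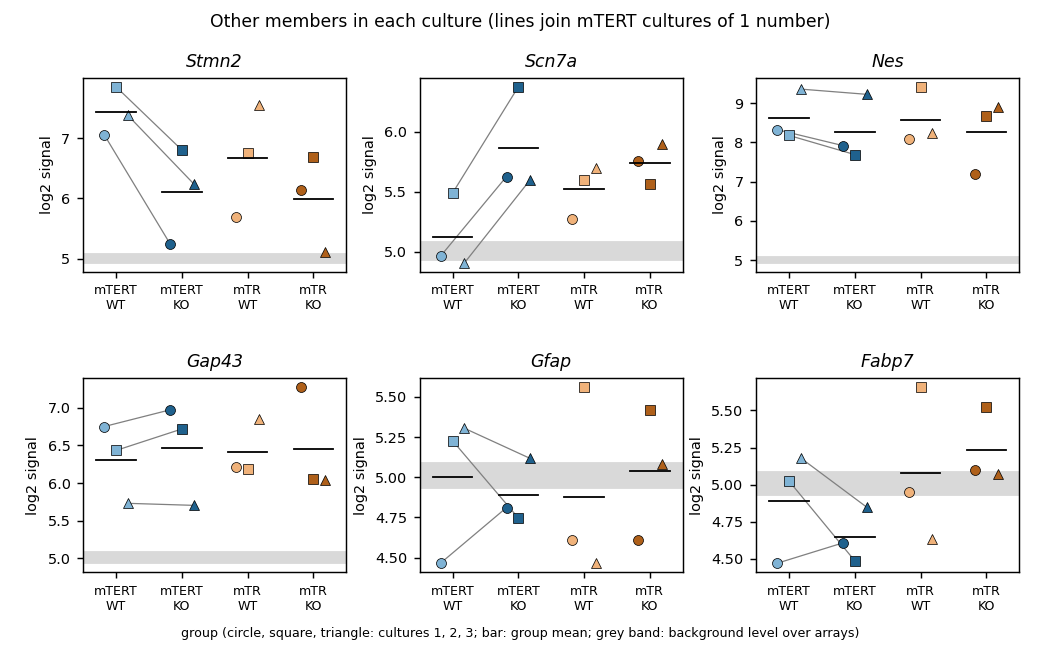
Log2 signal of 6 genes in each culture, by group, with lines joining the mTERT WT and KO cultures of 1 number, group means as bars and the background range in grey. All 3 lines slope down for Stmn2 and Nes and up for Scn7a, and for Nes and Gap43 the spread between lines exceeds the slope of any line.

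Tubb3 was between 7.85 and 8.34 in the mTERT and between 7.37 and 8.41 in the mTR cultures. Map2, a microtubule-associated protein of dendrites, was at 6.70, 6.50 and 6.46 in mTERT WT and at 6.39, 6.79 and 6.56 in mTERT KO. It was at 7.34, 6.27 and 7.34 in mTR WT and at 7.33, 6.53 and 6.81 in mTR KO, low in culture 2 of both mTR genotypes. Ncam1, an adhesion molecule also made by fibroblasts and muscle, was between 10.04 and 10.47 in the mTERT cultures. It was lower in mTR WT 1 and 3 (9.69 and 9.89) and in mTR KO 1 (9.63) than in the other 3 mTR cultures (10.19 to 10.31).

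Nrcam, an adhesion molecule of nodes and axons, was at 4.40, 5.30 and 5.02 in mTERT WT, at 4.50, 4.94 and 4.66 in mTERT KO, at 4.71, 5.64 and 4.77 in mTR WT and at 5.05, 5.27 and 4.82 in mTR KO. Gfap, the intermediate filament of astrocytes and non-myelinating Schwann cells, was at 4.47, 5.23 and 5.31 in mTERT WT and at 4.81, 4.75 and 5.12 in mTERT KO. In mTR WT it was at 4.61, 5.56 and 4.47, and in mTR KO at 4.61, 5.42 and 5.08. Both genes were highest in mTR WT culture 2 and were above background in some mTERT and some mTR cultures. Olig1, of the oligodendrocyte lineage, stayed between 4.63 and 5.13.

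The spread of the 22 genes above background in at least 3 cultures was wide for the array. The genes were chosen with earlier results of these data known, so their spread is given as a description only. Cdh19, Erbb3 and Gldn passed that filter through mTR cultures alone. The median SD over 12 cultures was 0.38 for the 22 genes, against 0.13 for all probe sets above background in at least 3 cultures. It was 1.02 for Cdh19, larger than 99.7% of those probe sets, and 0.72 for Erbb3, 0.72 for Ngfr, 0.71 for Sox2 and 0.70 for Nes. The other 12 genes had a median SD of 0.12.

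Lists of further neural genes gave no gene past 5% in any of the 5 comparisons. Of 16 neural crest regulators, 12 were above background in all cultures and 15 were higher on average in mTR than in mTERT cultures, with a median of 0.19 against -0.01 over all probe sets. The most variable were Pax3 and Msx1, transcription factors of the dorsal neural tube and of limb and face mesenchyme. Pax3 was at 7.39, 6.14 and 5.46 in mTERT WT, at 5.11, 5.20 and 5.09 in mTERT KO, at 6.84, 5.47 and 7.67 in mTR WT and at 7.83, 5.26 and 5.36 in mTR KO. Its high cultures (mTERT WT 1, mTR WT 1 and 3 and mTR KO 1) were not those high for Cdh19, apart from mTR KO 1. Msx1 ranged from 5.58 to 7.03 in the mTERT and from 5.13 to 7.53 in the mTR cultures.

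Among 21 other neuron genes 5 were above background in all cultures and 8 in none. The most variable, the ubiquitin hydrolase Uchl1, varied with the culture number in the mTERT cultures as Nes did, at 7.51, 8.37 and 9.31 in WT and at 7.33, 8.07 and 9.01 in KO, and Stmn4 ranged from 4.80 to 6.28. Of 13 progenitor and astrocyte genes 5 were above background throughout, and the most variable were Aldoc (5.03 to 6.40) and the glutamate transporter Slc1a3 (4.94 to 6.79). Of 17 neurotrophin, GDNF and neuregulin ligands and receptors 10 were above background throughout, and the most variable were the GDNF family receptors Gfra2 (5.17 to 7.48) and Gfra1 (6.33 to 8.45). Of 9 melanocyte genes only Mitf was above background, at 6.86 to 7.13. Among markers of other cell types, the most variable were Lum (5.62 to 10.09) and Pdgfra (6.21 to 9.98) of fibroblasts, Mrc1 (5.89 to 10.69) and C1qa (6.61 to 10.09) of macrophages, Des (5.70 to 9.77) and Pax7 (4.84 to 5.68) of muscle, Krt18 (4.76 to 5.92) and Krt8 (5.39 to 6.17) of epithelia and Emcn (4.28 to 5.70) of endothelium, over the 12 cultures. Of 9 muscle markers 3, and of 7 epithelial markers 2, were above background throughout.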

How the data were processed

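Total RNA of 12 cultures was hybridised to 1 array each. The deposited values are log2 signals per probe set, as the authors made them. GCOS 1.4, Affymetrix Expression Console and PLIER are named without a role in the submitters' processing notes. The normalization was not given in the sources used here. Quantiles differed by at most 0.0844 between arrays and correlations ran from 0.984 to 0.997, so the deposited log2 values were used unchanged. Symbols come from GEO's platform annotation (1 symbol for 21789 probe sets, several for 1621, none for 5443), and all 34 members matched RefSeq symbols.

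The 28853 probe sets were fitted in limma 3.58.1 (R 4.3.3) by their 4 group means, with moderated variances (eBayes) and Benjamini-Hochberg adjustment at 5%. No dim probe set was removed. Single genes were also tested by exact permutation. The fit was tested on simulated data. Members and lists were chosen with earlier results of these data known, and the lists cover neural crest, Schwann, melanocyte, neuron, progenitor, neurotrophin, fibroblast, macrophage, muscle, epithelial and endothelial genes. All members were named, with the 2 most variable genes above background of each list. Limma's p-values set a group difference against the spread between these cultures within groups. The main fit takes the cultures as independent, although those of a line share litters.

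The design text describes knockouts and wild types as littermates within sets. Over 14426 brighter probe sets, residuals about each group's mean gave correlations of 0.674, 0.733 and 0.790 between same-numbered mTERT cultures, and of -0.156, 0.289 and -0.377 between same-numbered mTR cultures. The numbers were therefore taken as pairs in the mTERT line only, although the labels do not tie a littermate set to a number. Alternatives were the number as a block, quantile normalization, median centring, a filter on dim probe sets, the compared arrays only, a trended robust prior, another background level and leaving out each array. Promoter windows were taken from a RefSeq table of GRCm38.p6.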

Additional observations from a re-analysis of the deposited data

How the results depend on the processing

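Of 381 values of 21 member differences under the alternatives, 369 kept their direction and side of the threshold, 12 newly passed it and none reversed. The 21 were those with an unadjusted limma p under 0.05, plus Cdh19 between mTR KO and mTR WT. That choice makes a reversal unlikely, and the smaller member differences were not counted. The number of probe sets called in the mTERT comparison was 0 with the culture number as a replicate block, 0 after quantile normalization and 0 with only the compared arrays. The block changed no call of a member in either knockout comparison. For the wild types 9 probe sets were called with a number shared by both lines as a block, 0 after quantile normalization and 1 with only the compared arrays, and 1 member, Gldn, was called with the block. Between the lines, 23 probe sets were called with the shared block, 1 with each line's number as a random block and 0 with the means of same-numbered cultures, all chosen after seeing the data. Gldn was the 1 member called there with the shared block, after quantile normalization, after median centring and with the trended robust prior. At the 99th percentile of the background, 5 members were above it in all arrays and 14 in at least 3. After quantile normalization groups did not overlap for 7 members (mTERT) and 1 member (mTR). Leaving out each array in turn gave 0 to 2 called probe sets for mTERT, 0 to 3 for mTR, 0 to 11 for the wild types and 0 to 22 between the lines. It gave 0 called members for mTERT, 0 to 1 for mTR and for the wild types and 0 to 3 between the lines, and 0 for the difference of effects. Groups then did not overlap for 5 to 9, 2 to 12, 6 to 12 and 5 to 6 members, in that order. Fewer cultures overlap less often by construction, and in the mTR comparison the counts were 10 without mTR WT culture 1 and 12 without mTR WT culture 2. Every gene had 1 probe set, so the mean over probe sets was not run. Many members lie near background, where small signals cannot be ordered.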

Other observations

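Outside the chosen genes, several probe sets followed the Cdh19 pattern over the 12 cultures. Pearson's r with Cdh19 served as the measure of likeness over 14248 single-gene probe sets above background in at least 3 cultures, a rule chosen after the values were seen. The 12 most like were Slitrk6, Erbb3, Ngfr, Pcdh20, L1cam, Sox10, Slc35f1, Fgf5, Cadm1, Sema4f, Cadm4 and Col28a1, with r from 0.904 to 0.984, and from 0.878 to 0.983 within the 6 mTR cultures. The next 13 had r from 0.825 to 0.899, and from 0.638 to 0.946 within the mTR cultures. The cultures of a line share litters, and r is given as a description with no test. Of the 12, Erbb3, Ngfr, L1cam and Sox10 are among the 34 genes. Slitrk6 and Pcdh20 are membrane proteins of nervous tissue, Cadm1 and Cadm4 adhesion molecules of the axon and Schwann cell contact, and Col28a1 a collagen of peripheral nerve. Slc35f1, Fgf5 and Sema4f also belong to the 12 and are not placed with a tissue here. The genes were chosen for their likeness to Cdh19, so an order of cultures shared with it is no further result. Slitrk6 was at 4.24 to 4.66 in the mTERT cultures, at 4.79, 6.40 and 4.69 in mTR WT and at 6.21, 5.48 and 5.95 in mTR KO. Cadm4 was at 4.68 to 5.44 in the mTERT cultures, at 5.79, 6.96 and 5.03 in mTR WT and at 6.27, 6.43 and 6.06 in mTR KO. Sox2 ranked 21, Fabp7 61 and Gldn 278.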
